A study of Homo sapiens with 26 samples.

Results

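The comparison asked how far the RNA response to arsenite differed between HCT116 cells that carried a phosphomimetic IGF2BP1 and cells that carried wild-type IGF2BP1. For each gene, the change from control to arsenite was averaged over the S181E and Y396E populations and set against the same change in the WT population. The libraries were chosen by genotype and treatment, and 17 of the 26 libraries of the series entered the comparison. HCT116 is a human colorectal carcinoma line. All 3 populations carried the genotype IGF2BP2 KO, IGF2BP3 KO and Tet-OsTIR1-PURO, and each expressed mCherry-IGF2BP1 from a lentivirus. S181E puts a glutamate in place of a serine in the linker between the RRM and KH domains, and Y396E puts one in place of a tyrosine in the linker between the KH domain pairs. Cells received 500 µM sodium arsenite for 2 h, or PBS as the control, and poly(A) RNA was sequenced from clarified lysate. There were 3 libraries each of WT control, WT arsenite, S181E control, S181E arsenite and Y396E control, and 2 of Y396E arsenite. The third Y396E arsenite library was left out because it held counts for 13897 genes, against 20850 to 23473 in the 17 libraries used. Each genotype was 1 sorted population, so the mutation and the history of the population cannot be told apart, and p-values measure the spread between dishes of 1 population. Another population, RQ, in which arginines of the linker that holds S181 were changed to glutamine, contributed 6 libraries as a separate yardstick of the response.

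IGF2BP1 is an RNA-binding protein that joins stress granules and affects the stability and translation of its target RNAs. Arsenite binds protein thiols and causes oxidative and proteotoxic stress. In the cell this engages HSF1 and the heat shock chaperones, NRF2 and its antioxidant targets, the integrated stress response with ATF4, and the immediate-early genes downstream of MAP kinases. Arsenite also halts the translation of most messages, while polymerase output and RNA decay both shift within the first hours.

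The 17 libraries held 22508145 to 50834401 counts. The epithelial markers EPCAM, KRT8, KRT18, KRT19 and CDH1 were present in every library, VIL1 was at most 0.207 CPM (counts scaled to library size, by TMM where groups are compared), and of the fibroblast, blood and endothelial markers COL1A1 was at 6.64 to 11.7 CPM and the others at most at 0.868. IGF2BP2 and IGF2BP3 transcripts were still counted in populations labelled as knockouts, at 65.9 to 90 CPM for IGF2BP2 and 108 to 166 CPM for IGF2BP3. A count over a whole gene does not show whether an edited transcript is functional. The share of counts from the mitochondrial genome moved with the groups. It was 21.1 to 26.9% in WT control, 11.7 to 17.1% in the control libraries of both mutants, 10.8 to 12.3% in WT arsenite and 7.71 to 10.1% in the mutant arsenite libraries. With TMM factors computed without these genes, an alternative chosen after seeing the data, 2297 genes differed between the responses in place of the 2306 described next.

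The arsenite response was smaller in S181E and Y396E than in WT across much of the transcriptome. Of 9086 protein-coding genes tested, 2306 (25.4%) differed between the mutant and the WT response at an adjusted p under 0.05 and a fold above 1.2 (edgeR quasi-likelihood test, Benjamini-Hochberg). Of these, 1061 (11.7% of genes tested) had the higher value in the mutants and 1245 (13.7%) the lower value. In WT itself, 6629 genes (73%) responded to arsenite. With scaling by library totals, 389 were higher and 2610 lower, and with the correction for exon length and GC content 1098 and 793, so the balance of directions depends on the scaling. Library totals moved the median difference of all genes from -0.024 to -0.14. Taken alone, S181E differed from WT at 2146 genes (23.6%) and Y396E at 2177 genes (24%), with the WT libraries shared by both. The comparison of Y396E with S181E called 0 genes in edgeR and 0 in DESeq2. In edgeR, 161 of 9086 genes had an unadjusted p under 0.05, fewer than evenly spread p-values would give. The RQ population, with the same WT libraries, differed at 38 genes (0.418%).

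The size of the loss was read from genes that the RQ libraries placed, so that neither the WT nor the mutant libraries chose them. Over the 3398 genes called higher by arsenite in RQ, the median response was 0.731 on the log2 scale in WT, 0.574 in S181E and 0.577 in Y396E. Over the 3304 genes called lower in RQ, it was -0.605 in WT, -0.472 in S181E and -0.456 in Y396E. The mutant mean was nearer to 0 than WT for 82.4% of the former and 78.1% of the latter. A line through the origin over all tested genes gave a mutant slope 0.81 times that of WT, with 0.814 for S181E and 0.806 for Y396E. The slope follows the RQ pattern, and the RQ response differed from that of WT at only 38 genes. A mutant response of equal size but another pattern would also lower it. Among RQ-placed genes with a difference called, 1038 rising genes were lower and 76 higher in the mutants, while 850 falling genes were higher and 50 lower.

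**Figure D1:**
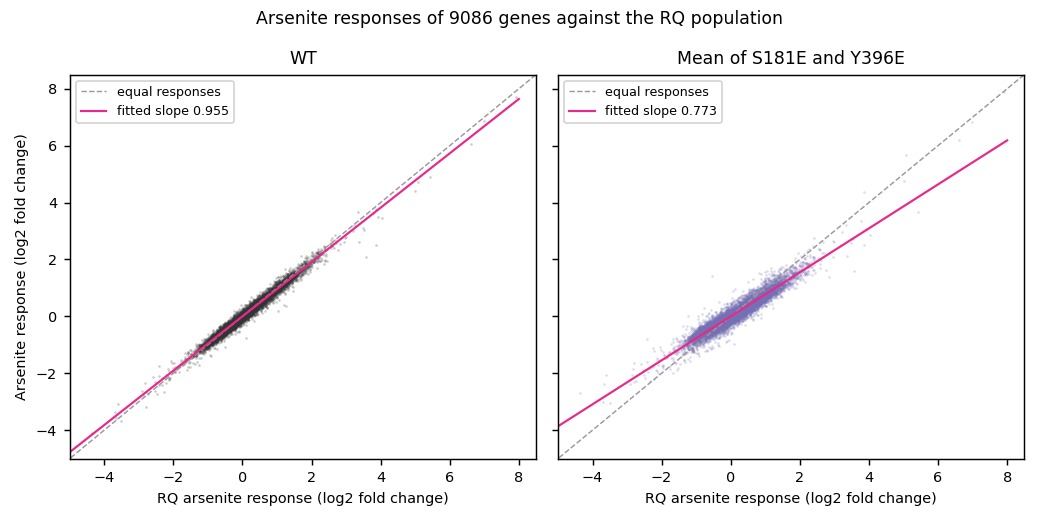
Each point is 1 of 9086 genes, with the log2 arsenite response in RQ on the x axis and that in WT (left) or the mean of S181E and Y396E (right) on the y axis. The fitted lines have slopes of 0.955 and 0.773, so the mutant cloud is tilted toward 0 relative to the dashed line of equal responses.

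The called genes fell mainly into 2 kinds. For 1048 genes (45.4% of those called) arsenite raised the RNA in WT and the rise was reduced in the mutants, with median responses of 0.98 in WT, 0.64 in S181E and 0.62 in Y396E. For 865 genes (37.5%) arsenite lowered the RNA in WT and the fall was reduced, with medians of -0.77, -0.42 and -0.41. Of the 1048, 828 still rose in the mutant mean and 220 were not called there. Of the 865, 623 still fell, 239 were not called and 3 rose. Enhanced responses were rarer, with 70 rises and 41 falls that were larger in the mutants. A further 126 genes had a higher and 156 a lower mutant response without a call in WT. Without WT control replicate 2, the reduced falls numbered 550 and with scaling by library totals 306, with 2111 reduced rises.

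More genes differed between genotypes before arsenite than after it. In control libraries 2828 genes (31.1%) differed between the mutants and WT, 1391 (15.3%) higher and 1437 (15.8%) lower. In arsenite libraries 1469 genes (16.2%) did, 590 (6.49%) higher and 879 (9.67%) lower. Of the 1048 genes with a reduced rise, 590 (56.3%) differed in the control level only, 121 (11.5%) in the arsenite level only, 46 in both and 291 in neither taken singly. Of the 865 genes with a reduced fall, 438 (50.6%) differed in control only and 102 in arsenite only. Over all called genes 1195 were in control only, or 736 without WT control replicate 2. The control level of the former was higher in the mutants by a median of 0.30 on the log2 scale while the arsenite level differed by -0.07. For the latter these medians were -0.30 and 0.07. The same libraries gave the calls and these medians, so they are a description. The RQ-placed genes were chosen by other libraries, although same-numbered libraries of different groups correlated at a mean r of 0.103. Among them, the rising genes were higher in mutant control by a median of 0.147. In mutant arsenite they were lower, at -0.0338. The falling genes were at -0.11 in control and 0.0249 in arsenite. Per unit of RQ response, the control level moved by 0.139 and the arsenite level by -0.0426, which puts 76.5% of the lost slope in the control level.

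**Figure D2:**
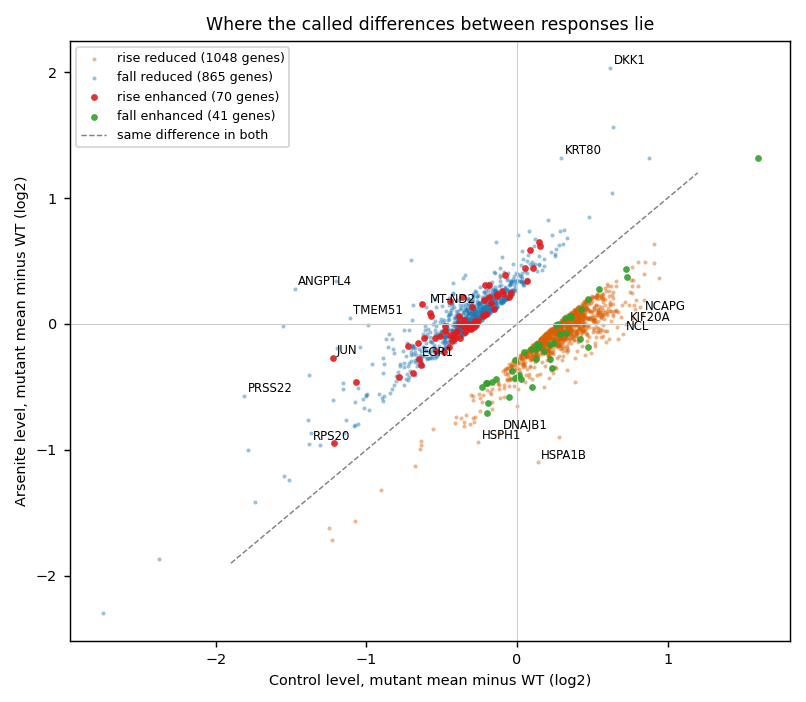
Each point is 1 gene with a called difference, at its mutant-minus-WT log2 difference in control (x axis) and in arsenite (y axis), coloured by kind. Reduced rises (1048) and falls (865) lie mostly near the horizontal zero line and to the right or left of it, and HSPA1B, DNAJB1, HSPH1, DKK1 and KRT80 lie away from it.

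Most heat shock chaperones had a smaller response in the mutants, with the difference in the control level for some and in the arsenite level for others. Of 24 tested, 18 (75%) had a lower response in the mutants and 0 a higher one, against 25.4% of all genes called. Median responses were 1.45 in WT, 1.01 in S181E and 1.07 in Y396E. Among the 18, 5 differed in the arsenite level only, 3 in both levels and 9 in the control level only. HSPA1B, an inducible HSP70, held 24.2, 21.6 and 25.8 CPM in WT control, 29.1, 24.4 and 26.8 in S181E control and 24.6, 24.7 and 27.7 in Y396E control. After arsenite it reached 716, 702 and 720 CPM in WT, 335, 299 and 331 in S181E and 379 and 310 in Y396E. The control libraries overlapped and every mutant arsenite library lay under every WT one. HSPA1B thus rose 29.8-fold in WT, 12-fold in S181E and 13.4-fold in Y396E, a difference of -1.24 ± 0.09 (SE) on the log2 scale (edgeR adjusted p = 4.1e-11). In RQ its rise exceeded that of WT by 0.53. Its reads are shared with the near-identical HSPA1A, so the split between the copies is uncertain. HSPA1A missed the filter on low counts because too few libraries passed it. It held 669, 916 and 877 counts in WT arsenite, 300, 204 and 393 in S181E arsenite and 353 and 446 in Y396E arsenite. With a filter that kept it, its difference was -1.04 ± 0.32 (edgeR adjusted p = 0.00962).

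DNAJB1, the HSP40 partner of HSP70, held 300, 303 and 303 CPM in WT control and 267 to 290 in the mutant controls. In arsenite WT reached 1680, 1652 and 1652 CPM, S181E 954, 859 and 900, and Y396E 953 and 891. The rise of DNAJB1 was 5.5-fold in WT, 3.22-fold in S181E and 3.34-fold in Y396E, and the difference was -0.75 ± 0.06 (edgeR adjusted p = 1.66e-10). DNAJB4, another HSP40, went from 11.7, 12.8 and 11.7 CPM to 72.5, 71.1 and 69 in WT, but only to 42.5, 36.3 and 39 in S181E and 35.8 and 37.6 in Y396E. Its control level was higher in the mutants (0.28 ± 0.07) and its arsenite level lower (-0.90 ± 0.05), and its difference was -1.18. HSPH1, a nucleotide exchange factor of HSP70, had responses of 2.76, 2.04 and 2.12 in WT, S181E and Y396E, and BAG3, which links HSP70 to autophagy, had 2.99, 2.51 and 2.52. For both, the control level of the mutants was at or under that of WT.

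Of the members called, 9 differed in the control level only. HSP90AA1 and HSP90AB1, the cytosolic HSP90 genes, were higher in mutant control by 0.57 and 0.55 and lay at -0.01 and -0.07 in arsenite. HSPD1, the mitochondrial chaperonin, was at 0.45 and -0.05, and STIP1, a scaffold of HSP70 and HSP90, at 0.51 and 0.11. HSPA8, the constitutive HSC70, was instead at 0.22 in control, under the fold threshold of 0.26 on the log2 scale, and at -0.27 in arsenite. DNAJA1, an HSP40, exceeded that threshold in size at both levels, at 0.33 and -0.36. The responses of HSPE1, DNAJB2, DEDD2, SERPINH1, AHSA1 and HSPB1 did not pass both thresholds.

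Promoter stretches of 2 of these genes are shown because the list moved together and HSF1 binds repeated GAA units. They come from RefSeq (GRCh38.p14), 5′ to 3′ on the strand of the gene and ending before its start site. Capitals mark the heat shock element, here GAA, any 2 bases, TTC, any 2 bases and GAA, on either strand.
HSPA8: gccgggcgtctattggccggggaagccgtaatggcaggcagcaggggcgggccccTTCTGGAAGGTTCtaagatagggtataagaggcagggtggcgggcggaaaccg
CHORDC1: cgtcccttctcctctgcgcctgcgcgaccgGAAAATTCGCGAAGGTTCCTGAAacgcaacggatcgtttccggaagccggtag
The HSPA8 stretch lies at chr11:123062139-123062246 (minus strand) and the CHORDC1 stretch, with 3 overlapping matches, at chr11:90223057-90223139 (minus strand). In windows from 250 bases before to 50 bases after the start, 5 of the 23 list members with a window held this motif (21.7%), against 0.487% of all 27305 windows. The windows of HSPA1B, DNAJB1, DNAJB4 and HSPH1 held no such letters.

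Of 12 polyubiquitin and autophagy receptor genes, 7 (58.3%) had a lower response in the mutants and 0 a higher one, against 25.4% of all genes called. The count was 4 without WT control replicate 2. TAX1BP1, an autophagy receptor for ubiquitinated proteins, went from 57.1, 52.9 and 59.3 CPM to 111, 115 and 114 in WT. In S181E it went from 61.3, 58.6 and 60.3 to 89.1, 93.2 and 97.9 CPM, and in Y396E from 57.3, 62.7 and 60.1 to 91.6 and 98. The controls overlapped and every mutant arsenite library lay under every WT one, with a difference of -0.35 ± 0.07 (edgeR adjusted p = 0.00016). ZFAND2A, a proteasome-associated arsenite-inducible protein, reached 94.8, 96.8 and 95.8 CPM in WT arsenite, against 71, 60.9 and 61.7 in S181E and 65.3 and 62 in Y396E, from overlapping controls. Of 29 proteasome subunit genes, 5 had a lower response, or 17.2% against 13.7% of all genes (2 without WT control replicate 2). In control, 19 of the 29 were higher in the mutants, against 15.3% of all genes, and in arsenite 4, against 6.49%. PSMD1 and PSMD2, scaffold subunits of the regulatory particle, were higher in the mutants by 0.49 and 0.52 in control and by 0.20 and 0.21 in arsenite.

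Mitosis genes rose less in the mutants and were higher there before arsenite. Of 27 tested, 23 (85.2%) had a lower response and 0 a higher one, against 25.4% of all genes called. Median responses were 1.44 in WT, 0.945 in S181E and 0.95 in Y396E. In control 23 of 27 were higher in the mutants, against 15.3% of all genes. The median of the list was 0.435 in control and 0.0595 in arsenite. NCAPG, a condensin subunit, held 38.6, 32.6 and 39.2 CPM in WT control, 66.2, 65.7 and 71.5 in S181E control and 58.2, 63.5 and 67.7 in Y396E control. After arsenite it held 180, 174 and 173 CPM in WT, 187, 195 and 193 in S181E and 176 and 184 in Y396E. The controls did not overlap and the arsenite libraries did. NCAPG rose 4.76-fold, 2.83-fold and 2.85-fold (difference -0.75 ± 0.08, edgeR adjusted p = 2.72e-08). KIF20A, a cytokinesis kinesin, held 20.4, 19.5 and 19.7 CPM in WT control, 32.5, 33.5 and 33.8 in S181E control and 30.8, 32.1 and 34.9 in Y396E control, and 128 to 143 in all 8 arsenite libraries. KIF11, which separates the spindle poles, and TPX2, a spindle assembly factor, differed by -0.72 and -0.65, and PLK1, a mitotic kinase, by -0.44. CENPF, a kinetochore protein, was the reverse case, at 0.16 in control and -0.40 in arsenite.

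Stretches of 3 mitosis promoters are shown because the cell cycle homology region (CHR) is the element that many genes of this class share. Capitals mark TTTGAA on either strand, and each stretch ends before the start site.
NCAPG: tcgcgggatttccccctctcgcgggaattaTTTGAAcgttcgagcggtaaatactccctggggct
PLK1: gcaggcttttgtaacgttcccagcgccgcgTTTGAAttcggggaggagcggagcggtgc
KIF11: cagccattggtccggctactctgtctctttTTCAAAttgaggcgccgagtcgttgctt
The stretches lie at chr4:17810914-17810978, chr16:23678830-23678888 and chr10:92593072-92593129, all on the plus strand. The motif was found in the windows of 16 of 22 mitosis genes (72.7%), 15.6% of the genes with a reduced rise, 5.27% of those with a reduced fall, 9.08% of tested genes and 15.4% of all windows. CCAAT was found in 77.3% of the mitosis windows and in 35.7% of all windows.

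**Figure D3:**
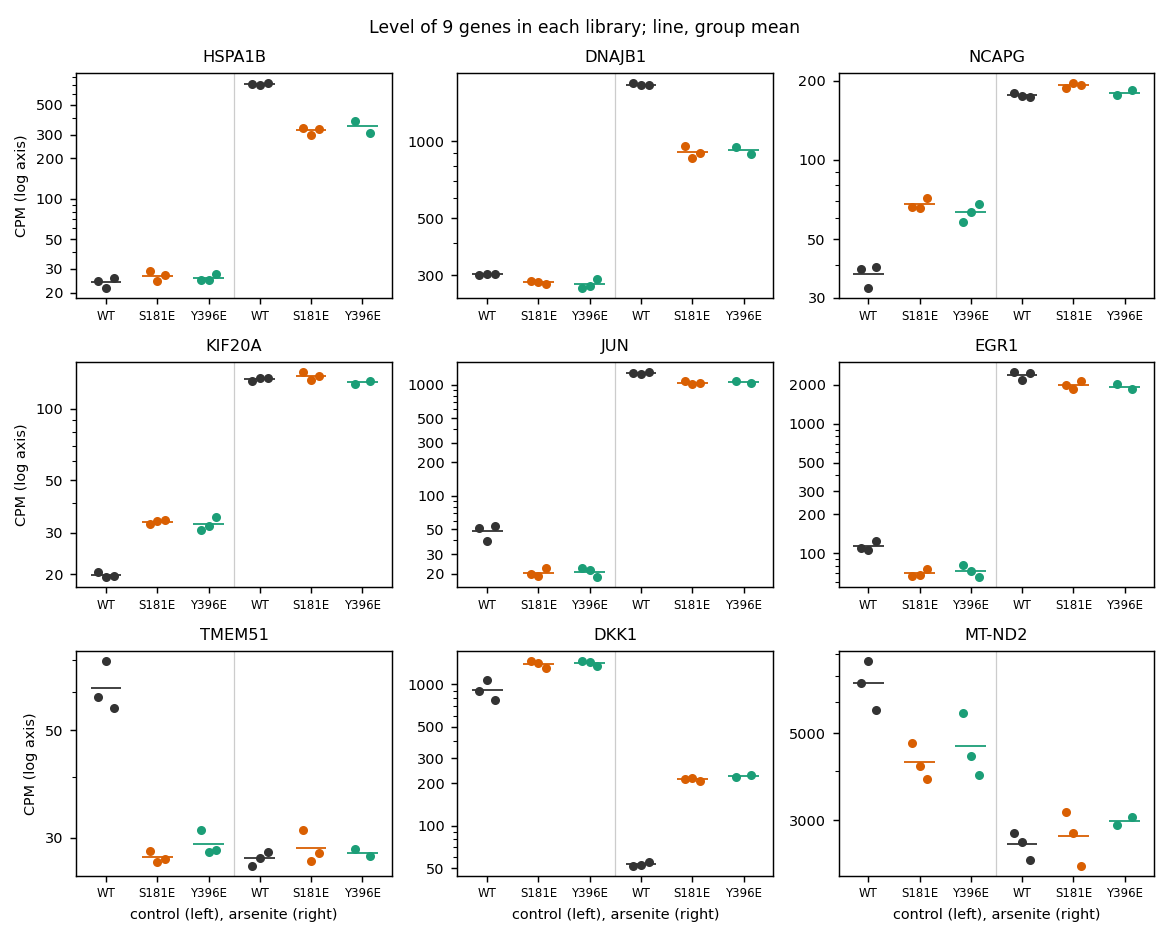
Points are the libraries of each group in CPM on log axes and lines are group means, with the 3 control groups left and the 3 arsenite groups right of the grey line in each panel. HSPA1B and DNAJB1 part in arsenite, NCAPG, KIF20A, JUN, EGR1, TMEM51 and MT-ND2 part mainly in control, and DKK1 parts in both.

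Of 24 G1/S and DNA replication genes, 10 (41.7%) had a lower and 0 a higher response, against 25.4% of all genes called. In control, 19 of the 24 were higher in the mutants, against 15.3% of all genes. MCM2, a subunit of the replicative helicase, held 77.9, 54.4 and 82 CPM in WT control, 113 to 138 in the mutant controls, and 252 to 286 in the arsenite libraries of WT and both mutants. MCM4, of the same helicase and on chromosome 8, was lower in the mutants by 0.81 in arsenite (-0.81 ± 0.07) and by less in control (-0.35 ± 0.07). Of 41 ribosome biogenesis genes, 16 had a lower and 1 a higher response, 41.5% called against 25.4% of all genes. Without WT control replicate 2 these counts were 9 and 0. In control 17 of the 41 were higher in the mutants, against 15.3% of all genes, and 10 without that library. NCL, the nucleolar protein nucleolin, held 524, 402 and 575 CPM in WT control, 836, 812 and 837 in S181E control and 749, 807 and 847 in Y396E control. In arsenite NCL held 1347, 1387 and 1346 CPM in WT and 1244 to 1338 in the mutants, so that its rise was 2.72-fold in WT, 1.59-fold in S181E and 1.57-fold in Y396E. DDX21 and DDX18, nucleolar helicases, differed by -0.59 and -0.50. Of 22 stress granule protein genes, 7 had a lower and 0 a higher response, 31.8% called against 25.4% of all genes. With a correction for exon length and GC content these counts were 4 and 1. DDX3X, a helicase found in stress granules, rose 2.2-fold in WT, 1.37-fold in S181E and 1.34-fold in Y396E, and G3BP2, a nucleator of these granules, rose 1.96-fold, 1.38-fold and 1.34-fold.

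Immediate-early transcription factors moved in both directions. Of 26 tested, 7 had a higher and 4 a lower response, 42.3% called against 25.4% of all genes. The median response was 1.74 in WT, 1.75 in S181E and 1.62 in Y396E. With scaling by library totals 4 were higher and 7 lower. Their control level was lower in the mutants for 15 of 26 and higher for 1, and their arsenite level lower for 14 and higher for 1. Of all genes, 15.8% were lower in mutant control and 9.67% in mutant arsenite. JUN, a subunit of AP-1, held 51.4, 39.4 and 53.1 CPM in WT control, 19.8, 19 and 22.5 in S181E control and 22.4, 21.5 and 18.7 in Y396E control. With arsenite it reached 1273, 1239 and 1298 CPM in WT, 1076, 1016 and 1041 in S181E and 1075 and 1046 in Y396E. JUN was under WT in both conditions, and its fold rise was 26.4 in WT and 50.9 in each mutant, a difference of 0.95 ± 0.09 (edgeR adjusted p = 1.63e-08). EGR1, a zinc finger factor induced by ERK, had 109, 106 and 123 CPM in WT control against 65.6 to 81.6 in the mutants. Its arsenite level was 2494, 2173 and 2470 CPM in WT against 1840 to 2136 in the mutants. The EGR1 difference was 0.37 ± 0.09, and was 0.26 and not called when libraries were scaled by their totals.

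Stretches of the JUN, ATF3 and EGR1 promoters are shown because the responses of JUN and ATF3 differed from WT in opposite directions and both promoters hold an octamer. Capitals mark TGACNTCA on either strand in JUN and ATF3, and the CArG box bound by SRF in EGR1.
JUN: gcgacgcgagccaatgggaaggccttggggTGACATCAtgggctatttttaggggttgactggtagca
ATF3: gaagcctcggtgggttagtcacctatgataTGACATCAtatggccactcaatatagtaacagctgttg
EGR1: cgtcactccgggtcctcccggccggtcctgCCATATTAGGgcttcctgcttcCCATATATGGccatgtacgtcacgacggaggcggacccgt
They lie at chr1:58784077-58784144 (minus strand), chr1:212565254-212565321 (plus strand) and chr5:138465344-138465435 (plus strand). The octamer was found in 5 of 19 immediate-early windows (26.3%) and 7.97% of all windows, and the CArG box in 2 of 19 and 1.29%.

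ARC, a synaptic activity gene on chromosome 8, was lower than WT in mutant control and higher in mutant arsenite. DUSP1, a phosphatase of MAP kinases, was lower in mutant control, and its arsenite level was not called different. ARC held 14.7, 12.9 and 13.9 CPM in WT control and 8.4 to 9.98 in the mutants, and then 50.3 to 55.8 in WT arsenite and 57.6 to 64.7 in the mutants. DUSP1 rose 13.8-fold in WT, 20.1-fold in S181E and 21.2-fold in Y396E, a difference of 0.58 ± 0.08 (edgeR adjusted p = 1.35e-06). ATF3, a stress-induced partner of JUN, had a smaller response in the mutants, although JUN too was under WT in arsenite. ATF3 held 469, 489 and 464 CPM in WT arsenite against 400, 357 and 372 in S181E and 374 and 369 in Y396E. Its difference was -0.59 ± 0.10. FOS rose 212-fold in WT, 254-fold in S181E and 225-fold in Y396E, and its difference of 0.18 ± 0.12 was not called (95% interval -0.07 to 0.42). The RQ response exceeded that of WT by 0.60 for EGR1, as in the mutants, and by 0.59 for ATF3, where the mutant response was lower. Of the 26 immediate-early genes 5 differed between RQ and WT, and of the 12 MAP kinase feedback genes 2 did, against 0.418% of all genes. Over the 26, the median difference from the WT response was 0.239 in RQ and 0.0366 in the mutants.

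Several of the largest differences belonged to genes that arsenite lowered in WT. WNT9A, a Wnt ligand, held 38.1, 38 and 33.7 CPM in WT control, 15.8, 13.5 and 15.5 in S181E control and 17, 15.6 and 18.2 in Y396E control. After arsenite it held 5.02 to 6.74 CPM in WT and 6.14 to 8.64 in the mutants. The controls did not overlap and the arsenite libraries did, and the difference of WNT9A was 1.54 ± 0.12 (edgeR adjusted p = 1.66e-10). SEMA7A, a semaphorin, was at -0.70 in control and 0.51 in arsenite. TMEM51, a membrane protein, went in WT from 58.5, 69.5 and 55.6 to 26.3, 27.3 and 28.1 CPM, and held 26.7 to 31.2 CPM in every mutant library of either condition, a difference of 1.16 ± 0.09.

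DKK1, a secreted Wnt inhibitor, differed at both levels and in one direction. It held 893, 1072 and 777 CPM in WT control and 1299 to 1464 in the mutant controls. In arsenite it fell to 52, 52.2 and 55.2 CPM in WT, 212, 218 and 207 in S181E and 219 and 227 in Y396E. No library of one genotype class reached the other, and the arsenite level was higher in the mutants by 2.03 ± 0.08 on the log2 scale. KRT80, a keratin, was similar, at 4.18 to 5.42 CPM in WT arsenite and 9.49 to 13.7 in the mutants. ID2, an inhibitor of helix-loop-helix factors, and CCN1, a matricellular target of YAP, differed by 0.54 and 0.60. Both were lower in every mutant control and higher in every mutant arsenite library.

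For 3 genes arsenite lowered the RNA in WT and raised it in the mean of S181E and Y396E, by call. ANGPTL4, a secreted inhibitor of lipoprotein lipase, held 15.2, 13.4 and 14.3 CPM in WT control and 13.2, 9.53 and 11.6 in WT arsenite. In S181E it went from 5.51, 4.39 and 4.46 to 13.3, 13.1 and 12.8 CPM, and in Y396E from 6.02, 6.12 and 4.64 to 13.6 and 15.2. The difference was 1.75 ± 0.14 (edgeR adjusted p = 1.66e-10). PRSS22, a secreted serine protease, had responses of -0.96 in WT, 0.28 in S181E and 0.27 in Y396E. KLF6, a Krüppel-like factor, had -0.31, 0.36 and 0.19, the last under the fold threshold of 0.26. HBEGF, a ligand of the EGF receptor, did not pass the WT threshold. It held 30.9 to 32 CPM in WT control, 15.1 to 18.3 in the mutant controls, 26.1 to 27.5 in WT arsenite and 28.6 to 32.1 in mutant arsenite, a difference of 1.12 ± 0.08. GEM, a small GTPase on chromosome 8, had a difference of 1.29, and its RQ response also exceeded that of WT, by 0.86.

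Transcripts of the mitochondrial genome fell less in the mutants. Of 13 tested, 11 (84.6%) had a higher response and 0 a lower one, against 25.4% of all genes called. Median responses were -0.934 in WT, -0.468 in S181E and -0.451 in Y396E. All 13 were lower in mutant control, against 15.8% of all genes. The median difference of the 13 was -0.731 in control and -0.182 in arsenite. MT-ND2, a subunit of complex I, held 6721, 7659 and 5754 CPM in WT control, 4716, 4120 and 3823 in S181E and 5624, 4368 and 3918 in Y396E, and 2295 to 3144 in the arsenite libraries of WT and both mutants. The RNA came from lysate cleared of debris, and the release of mitochondria into it was not measured. In these bulk libraries less RNA per cell and less RNA entering the lysate cannot be told apart. Without WT control replicate 2, 9 of 13 had a higher response.

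Cytosolic ribosomal protein genes fell somewhat less in the mutants. All 76 had a difference above 0, of which 18 (23.7%) passed both thresholds, against 11.7% of all genes with a higher response. Their median response was -0.68 in WT, -0.472 in S181E and -0.427 in Y396E. RPS28 went from 627, 740 and 657 to 335, 363 and 340 CPM in WT, and over the mutants lay between 530 and 568 in control and 345 and 404 CPM in arsenite, with a difference of 0.41 ± 0.07. RPS20, on chromosome 8, was lower in the mutants in both conditions, by -1.38 and -0.95. The count of 18 was 3 without WT control replicate 2, 12 with the correction for exon length and GC content, and 2 with scaling by library totals.

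Some targets of the integrated stress response rose less in the mutants, and every call among them was lower. ATF4 had responses of -0.31, -0.43 and -0.40 in WT, S181E and Y396E and its difference of -0.10 ± 0.06 was not called. DDIT3, encoding CHOP, rose 11.1-fold, 8.81-fold and 7.98-fold, from 8.61, 9.51 and 9.75 CPM in WT and 9.9 to 12.9 in the mutants to 96.4 to 107 in the arsenite libraries of these 3 populations. In RQ arsenite DDIT3 held 169 ± 20.7 CPM (SD, n = 3). Of 35 ATF4 targets, 9 had a lower and 0 a higher response, so that 25.7% were called. Of all genes, 25.4% were called in either direction and 13.7% had a lower response. In RQ, 7 of the 35 differed from WT, against 0.418% of all genes, and the ATF4 response itself was higher than in WT by 0.41 (edgeR adjusted p = 0.00062). AARS1, alanyl-tRNA synthetase, reached 221 to 233 CPM in the arsenite libraries of WT and both mutants, from 49.6, 38.6 and 47.8 in WT and 59.6 to 69.8 in the mutants. SESN2, a stress-induced regulator of mTORC1, was lower in the mutants in arsenite, at 32.4 to 38.8 against 59.8 to 64.6 CPM, and its RQ response was far above that of WT (1.48, edgeR adjusted p = 3.42e-08).

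Of 23 NRF2 targets, 21.7% differed between the responses, under the 25.4% of all genes. HMOX1, heme oxygenase, held 19 to 22.5 CPM in the control libraries of WT and both mutants, 39.7 to 40.9 in WT arsenite and 42.1 to 43.4 in mutant arsenite, and its difference was 0.09 ± 0.08 (95% interval -0.07 to 0.25). Of the 23 targets, 4 had a lower and 1 a higher response (1 and 0 without WT control replicate 2). In mutant control 12 of the targets were higher, against 15.3% of all genes. FTL, the ferritin light chain, lay between 2482 and 3070 CPM in WT control and 1338 and 1397 in WT arsenite. In the mutants it lay between 3138 and 3644 CPM in control and 2053 and 2330 in arsenite. GCLC, the rate-limiting enzyme of glutathione synthesis, was higher in mutant control by 0.31 and differed by 0.0081 in arsenite. Of 15 arsenic transport and glutathione genes 2 were called, or 13.3% against 25.4% of all genes. AQP3, a water and metalloid channel, was 1 of these 2, at 0.34 ± 0.13. Its call was lost in 10 of 23 fits that left out a library. Of 4 metallothionein-list genes only the zinc exporter SLC30A1 was called (-0.27 ± 0.10), and that call was lost in 9 such fits. MT2A, a metallothionein, differed by 0.23 and missed the fold threshold.

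Cholesterol synthesis genes were lower in the mutants in both conditions. Of 24 tested, 16 were lower in mutant control and 16 in mutant arsenite, and 0 higher in either. Of all genes, 15.8% were lower in mutant control and 9.67% in mutant arsenite. Their median response was 0.268 in WT, 0.292 in S181E and 0.269 in Y396E. There were 5 higher and 3 lower calls (1 and 2 without WT control replicate 2). The 5 and 3 made 33.3% of the list, against 25.4% of all genes. HMGCS1, the synthase ahead of HMG-CoA reductase, held 37.4, 30.2 and 39.4 CPM in WT control and 28.1 to 29.8 in the mutants. In arsenite it held 89.1, 83.2 and 87.1 CPM in WT and 50.2 to 52.3 in the mutants, a difference of -0.45 ± 0.08 (edgeR adjusted p = 0.000165). TM7SF2, a sterol reductase, differed in the other direction (0.43 ± 0.09).

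Of 10 NF-kB feedback and chemokine genes, 5 had a lower and 1 a higher response, 60% called against 25.4% of all genes. Among the 5, 4 were reduced rises. TNFAIP3, the ubiquitin-editing enzyme A20, went from 3.42, 4.21 and 4.73 to 18.6, 15.5 and 17.6 CPM in WT, and reached 10.9 to 14.9 CPM in the mutants. NFKBIA, the inhibitor of NF-kB, rose 1.54-fold in WT and 0.985-fold and 1.09-fold in the mutants. Of 21 ER chaperone genes, 5 had a higher and 1 a lower response, 28.6% against 25.4% of all genes. MANF, an ER-resident secreted factor, was lower in every mutant control and higher in every mutant arsenite library (0.49 ± 0.08). Of 18 SRF and YAP targets, 6 were higher and 2 lower (44.4%, against 25.4% of all genes). LATS2, the kinase that restrains YAP, rose 1.51-fold in WT and was at 0.966-fold and 0.915-fold in the mutants. Of 22 p53 targets, 3 were higher and 1 lower, 18.2% against 25.4% of all genes. BBC3, encoding PUMA, reached 25.6 to 29.5 CPM in WT arsenite against 16.9 to 18.6 in the mutants, whereas CDKN1A, encoding p21, differed by 0.05 ± 0.06. Of 12 MAP kinase feedback genes 2 had a higher response (16.7%), and of 9 RNA decay regulators 1 had (11.1%), against 11.7% of all genes. Of 11 BMP, TGF-beta and Wnt feedback genes 3 were higher and 1 lower (36.4%, against 25.4% of all genes).

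**Figure D4:**
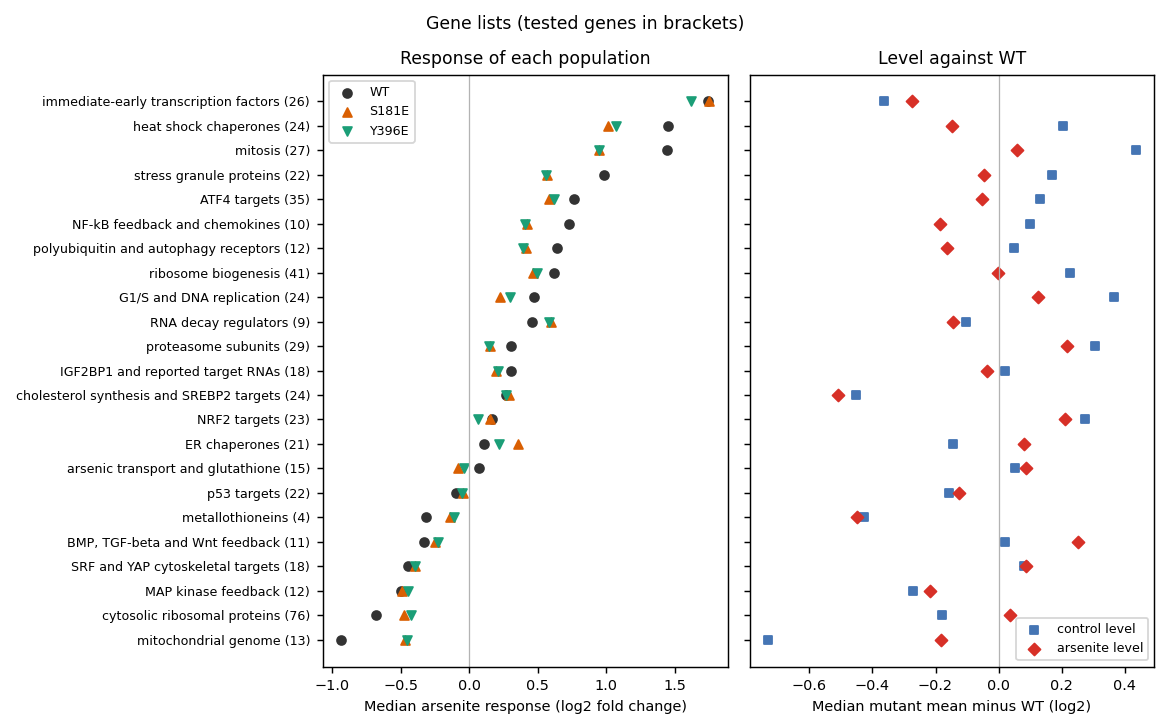
The left panel gives the median log2 arsenite response of each gene list in WT, S181E and Y396E, with the number of tested genes in brackets. The right panel gives the median log2 difference of the mutant mean from WT in control (squares) and arsenite (diamonds), with mitosis at 0.435 and 0.0595 and the mitochondrial genome at -0.731 and -0.182.

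Of 18 genes listed as IGF2BP1 and its reported target RNAs, 2 had a higher and 2 a lower response, 22.2% against 25.4% of all genes. IGF2BP1 itself, which counts transgene and endogenous reads together, held 10.9, 10.6 and 14.7 CPM in WT control and 15.2 to 20.4 in the mutants. It rose 2.4-fold in WT, 2.31-fold in S181E and 2.63-fold in Y396E (difference 0.04 ± 0.11), and was higher in the mutants in both conditions. MYC, on chromosome 8, fell to 0.505 of control in WT and to 0.584 and 0.64 in the mutants, and CTNNB1, encoding beta-catenin, rose 3.46-fold, 2.61-fold and 2.48-fold. IGF2BP3 had responses of -0.07 in WT, -0.28 in S181E and -0.29 in Y396E, and its difference of -0.21 was under the fold threshold.

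Genes whose fall was enhanced, or that fell only in the mutants by call, included several that were lower in mutant arsenite. NAB2, a corepressor of EGR1, held 85.3 to 92.3 CPM in WT arsenite and 62 to 65 in the mutants from overlapping controls (-0.60 ± 0.07, edgeR adjusted p = 2.31e-07). NRIP1, a nuclear receptor corepressor, held 30.9 to 36.5 CPM in WT arsenite and 17.9 to 20.7 in the mutants, with a difference of -0.68. EPC2 and ELF1, chromatin and ETS-family proteins, differed by -0.64 and -0.53, and BDP1, a subunit of TFIIIB, by -0.53, each in the arsenite level. NR1D2, a circadian repressor, was instead 0.47 higher in mutant control. Among the enhanced rises, NFIL3, PPL, HELZ2 and ZC3H12A were all lower in every mutant control library than in any WT one.

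The genes of the main kinds differed in build. Those with a reduced rise had a median of 17 exon blocks and 4704 bases of exon, those with a reduced fall 6 and 2705, and all tested genes 10 and 3931. Rising genes in WT without a called difference had 15 exon blocks and 4218 bases, and falling ones 7 and 3676. With offsets that removed the dependence of each library on exon length and GC content, an alternative chosen after seeing the data, the reduced rises numbered 698 and the reduced falls 900, and the ratio of mutant to WT response was 0.819. Chromosome 8 was lower in the mutants in both conditions, by medians of -0.409 in control and -0.458 in arsenite over 323 genes. The median difference between responses there was -0.00371, with 24.8% of genes called against 25.4% elsewhere.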

How the data were processed

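Poly(A) RNA was sequenced from aliquots of clarified lysate. The deposited values are raw read counts per gene, which the authors made with featureCounts 2.0.6 (strand setting 2, GENCODE release 46) after alignment with STAR 2.7.11b. FastQC 0.11.9 and bcl2fastq 2.20.0.422 stand in the submitters' processing notes. Symbols and gene types came from GENCODE release 44, which matched 99.1% of identifiers. Protein-coding genes above 10 CPM in at least 11 of 23 libraries were tested, 9086 in all. TMM factors lay between 0.866 and 1.09.

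Group means of 8 groups (WT, S181E, Y396E and RQ, control and arsenite) were fitted with edgeR 4.0.16 in R 4.3.3 (with limma 3.58.1), which left 15 residual degrees of freedom, and each contrast was given a quasi-likelihood test. A gene was called at a Benjamini-Hochberg adjusted p under 0.05 over all tested genes and a fold above 1.2. Values are mutant minus WT on the log2 scale, and an enhanced or reduced response is a called difference with or against the called WT response. The size of the response is a slope through the origin on the RQ response. Depth was 22508145 to 50834401 counts, and the median standard error of the difference was 0.0791.

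Named genes were those with the largest differences in each kind (8 for reduced, 5 for enhanced, 3 for no WT call), the 3 called members of each list with the largest differences, and a set that included FOS, JUN, ATF3, EGR1, HSPA1A, HMOX1, ATF4 and IGF2BP1. Other list members, such as HSPH1, BAG3, HSP90AA1, CENPF and PLK1, were chosen after their values were seen. The comparison, the members and the lists were chosen with earlier results of these data known. Alternatives were DESeq2 1.42.0, other scalings, filters and folds, a replicate block, and leaving out each library. TMM without mitochondrial genes, the length and GC correction, and leaving out chromosome 8 with the mitochondrial genome were added after seeing the data. The procedure was tested on simulated data.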

Additional observations from a re-analysis of the deposited data

Results flagged for a closer look

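The mutant mean response was also set against the RQ response, and 2669 genes differed by edgeR's quasi-likelihood test, against 38 between RQ and WT. For 3 genes the called WT response was a fall and the called mutant mean response a rise. ANGPTL4 had the largest such difference, at 1.75 on the log2 scale, followed by PRSS22 at 1.24 and KLF6 at 0.58. Outside the comparison, HCT116 cells labelled with no transgene or knockout, here called parental, had 1 library per treatment. The size of its response relative to WT was 0.896, on the scale where the mutants had 0.81, with no replicate check. HSPA1A, left out by the filter on low counts, had a difference of -1.04 when it was kept, and its reads are shared with HSPA1B.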

How the results depend on the processing

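The balance of directions depended on the setting: 46% of calls were higher in the mutants, against 13% with library totals, 50.9% with RLE size factors and 58.1% with the length and GC correction. The mutant response was smaller than that of WT in every setting listed here. With no fold threshold 3771 genes differed, with 1391 reduced falls. Above a fold of 1.5, 114 genes differed, 113 for S181E, 133 for Y396E and 9 for RQ, with 49 reduced rises and 51 reduced falls, and above a fold of 2 these counts were 13, 12, 16, 2, 2 and 9. The RQ count was 20 with all 24 libraries, 23 with library totals, 76 with no filter and 60 with DESeq2. Library totals gave 2111 reduced rises and 306 reduced falls, and the length and GC correction 698 and 900. The size of the mutant response was 0.779 with library totals, 0.846 with no filter, 0.792 with over 10 CPM in every library and 0.819 with the length and GC correction. Leaving out 1 library at a time gave 1590 to 2878 differing genes, 1460 to 2697 for S181E, 1517 to 2772 for Y396E, 24 to 66 for RQ, 734 to 1281 reduced rises, 550 to 1117 reduced falls and a size of 0.791 to 0.842. Most of these extremes came without WT control replicate 2 or 3. The cause was not tested. With a replicate block 2228 genes differed, and 56 for RQ. As deviations from their group means, same-numbered libraries correlated at a mean r of 0.103 over 77 pairs (lowest -0.0506). The mean between numbers, -0.0517, is tied to that value by the centring and adds no separate evidence. Of 23 libraries, 22 correlated best with their own number. This is a hint from the data that libraries of 1 number share something, but the labels give no shared batch or day and some pairs did not correlate, so the block was kept as an alternative. Of 97 named genes 88 were called, and in fits that left out 1 library 26 calls were lost and 2 gained. The length and GC correction lost 11, all 24 libraries 7, and library totals lost 6 and gained 1. Depth and the 2 Y396E arsenite libraries limit values under 10 CPM. Genes above 10 CPM in fewer than 11 of 23 libraries were not tested, but some tested genes lay under 10 CPM in whole groups.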

Other observations

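The parental libraries had an intermediate place among the genes with altered responses. Over the 1048 reduced rises their median response was 0.803, with a control level 0.162 above WT and an arsenite level at -0.0394. On the same scale the mutants were at 0.3 and -0.0636. Over the 865 reduced falls the parental median response was -0.572, with -0.174 in control and 0.0298 in arsenite. The genes were chosen with the WT libraries, and these values carry no replicate check. The Y396E arsenite library left out of the fit differed from the other 2 by a median of 0.0316 over the reduced rises and -0.0332 over the reduced falls.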
